A study of Homo sapiens with 4 samples.

Results

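The genes of the mitochondrial respiratory chain and of the ATP synthase were compared between PANC-1, a cell line from a human pancreatic adenocarcinoma, and PZT-2, a clone of PANC-1 in which the histone variant H2A.Z was depleted. Members were all genes whose symbol begins with NDUFA, NDUFB, NDUFC, NDUFS or NDUFV (complex I), UQCR (complex III), COX4 to COX8 (complex IV) or ATP5 (complex V) and that had a transcript in the deposited abundance table. Of 98 matching symbols, 92 had such a transcript, out of 15219 named genes in all, and these 92 fell into 51 genes of complex I, 8 of complex III, 12 of complex IV and 21 of complex V. All 92 passed the filter on low counts and were tested. The other 6 symbols, COX4I2, COX6A2, COX7A1, COX7B2, COX8C and UQCRHL, had no transcript in that table and are not analysed here. The symbol rule also took in genes that are not subunits, among them the complex I assembly factors NDUFAF1 to NDUFAF8, and 5 antisense, divergent or readthrough genes (NDUFA6-DT, NDUFB2-AS1, NDUFV2-AS1, NDUFC2-KCTD14 and ATP5MF-PTCD1). ATP5S (DMAC2L in RefSeq) and the ATP synthase inhibitor ATP5IF1 are also no subunits and were counted in complex V. NDUFA4 was counted in complex I by its symbol.

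The series held 4 mRNA libraries, 2 of untransduced PANC-1 and 2 of PZT-2, all from cells at passages p12-p13 grown in the same medium. PZT-2 carried lentiviral short hairpin RNAs against H2A.Z.1 (H2AFZ) and against both H2A.Z.2 isoforms (H2AFV), each driven by the U6 promoter of pLL3.7-puro. PZT-2 is a single clone that was transduced and selected with puromycin, whereas the PANC-1 cells here were untransduced. The paper also describes sequencing of cells with a scrambled hairpin, and reports that similar genes changed in PZT-2 against either control. No library of those cells is in the series. Differences from PANC-1 through the knockdown, the transduction, the drug selection and the choice of the clone therefore cannot be told apart in these libraries. Nor can fewer cells that express a gene and less RNA per cell be told apart in such bulk libraries. In the targeted genes, H2AFZ had normalized counts of 6386 and 6031 in PANC-1 and 2211 and 2258 in PZT-2, and H2AFV had 3342 and 3451 against 2588 and 2717, so both were lower in the clone, although H2AFV did not pass without PZT-2 replicate 1 (adjusted p = 0.0599) or with its most abundant transcript alone (0.0667). The epithelial or ductal keratins KRT8, KRT18 and KRT19 were detected in all 4 libraries, from 12378 to 41912 normalized counts. KRT7, which the paper used as its ductal marker (CK7), had only 143 and 114 in PANC-1 and 104 and 109 in PZT-2. The epithelial marker EPCAM had 102 and 105 in PANC-1 and 102 and 82.0 in PZT-2. Neither KRT7 nor EPCAM was called. None of the acinar or endocrine markers examined had a transcript in the table. KRT8, KRT18, KRT19 and CDH1 (cadherin of epithelial junctions) were called lower in PZT-2, as was the collagen gene COL1A1, and of the 2 leukocyte markers with a value CD14 was called higher, from 3.37 and 0 to 16.1 and 31.6 normalized counts, while CD68 had 1682 and 1577 against 1707 and 1621 (adjusted p = 0.770). With the most abundant transcript alone CD14 (adjusted p = 0.0837) and CDH1 (0.0913) lost their calls, and DESeq2 did not call CDH1 (0.263). The endothelial marker PECAM1 lay between 4.02 and 12.4 in the 4 libraries. The part of these markers in the results below was not tested.

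The respiratory chain passes electrons from NADH and succinate to oxygen through complexes I to IV of the inner mitochondrial membrane, pumping protons at complexes I, III and IV. Complex V, the ATP synthase, lets the protons flow back through a rotating ring of c subunits and makes ATP in its F1 head. Most subunits, and all members here, are encoded in the nucleus, whereas the core of the membrane arm of complex I, the catalytic core of complex IV and parts of complexes III and V come from mitochondrial DNA. Transcription of the nuclear subunit genes is known to involve NRF1, GABPA (NRF2), YY1, the estrogen-related receptors and their coactivators of the PGC-1 family.

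Promoter sequences, running from 250 bases before to 50 bases after the annotated start, were found for 77 of the 92 members in RefSeq (GRCh38.p14). The letters GCGCANGCG, the core of the NRF1 motif, were present on either strand in 21 of these 77 promoters (27.3%), against 8.05% of all 27305 promoters, 1 for each gene, and 14.4% of the promoters of tested genes. The ETS letters CCGGAAG, which GABPA recognises, were in 19 of 77 (24.7%), against 10.7% of all promoters and 18.7% of those of tested genes. The YY1-type letters ATGGCGGC were in 11 (14.3%, against 3.21% and 5.97%), and AAGGTCA, an element of the estrogen-related receptors, in 7 (9.09%, against 3.97% and 2.63%). Each motif was counted once per promoter, and none was required to be clear of another. A match describes letters only and is not a binding site.

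Among the members whose RNA was lower in PZT-2 at an adjusted p under 0.05 (described below), 9 of the 26 with a promoter sequence held the NRF1 letters, and 9 of 26 the ETS letters. None of the 4 promoters of members that were higher held any of the 4 motifs, and among the 47 members that were not called 12 held the NRF1 letters and 10 the ETS letters. The windows below show 1 match in each of the 9 lower members with NRF1 letters, so that the letters counted above can be seen in their promoters. The ETS match follows for 4 of the 9 lower members with ETS letters. These 4 are examples and are not the 4 largest falls among those 9. Each of these 2 sets of letters was in 34.6% of the 26 lower members, beside 25.5% (NRF1) and 21.3% (ETS) of the 47 members not called. Each runs 5′ to 3′ along the gene, and capitals mark the motif, or its reverse complement.
NDUFS7, chr19:1383823-1383851, plus strand: ttccggtttcCGCATGCGCtccgagccgc
NDUFS6, chr5:1801351-1801379, plus strand: cagaagccgtGCGCATGCGttagcgctaa
NDUFA9, chr12:4649025-4649053, plus strand: tcttggttagCGCTTGCGCagacaggcga
NDUFA3, chr19:54102675-54102703, plus strand: ctgcgcgagtGCGCACGCGcaggctccga
NDUFA11, chr19:5903869-5903897, minus strand: cggtccccggCGCGTGCGCgcgatccatg
UQCR11, chr19:1605472-1605500, minus strand: cctccccgcgCGCGTGCGCgccgcggccg
UQCRFS1, chr19:29213163-29213191, minus strand: cgcctcctcgCGCCTGCGCcgtggttgga
ATP5F1C, chr10:7788145-7788173, plus strand: gggagcttcgGCGCATGCGcgctgaggcc
ATP5MC2, chr12:53676106-53676134, minus strand: gcccgggtcaCGCATGCGCtgagccttcc
NDUFA1, chrX:119871775-119871801, plus strand: tccgtcgcttCTTCCGGagccgtacgt
NDUFB7, chr19:14572074-14572100, minus strand: cctaaatgacCCGGAAGctgtgtctga
COX8A, chr11:63974592-63974618, plus strand: agctccagaaCTTCCGGccagcgcagc
ATP5MG, chr11:118401597-118401623, plus strand: gcagcgggtcCTTCCGGcgggtgacat

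More members were lower than higher in PZT-2. With edgeR's quasi-likelihood test and Benjamini-Hochberg adjustment over all 15099 genes tested, 30 of the 92 members (32.6%) were called lower and 6 (6.52%) were called higher at an adjusted p under 0.05. Over all genes tested, 13.7% were called lower, 14.7% higher and 28.4% in either direction, against 39.1% of the members. The median log2 fold change of the members, given here always as PZT-2 against PANC-1 and called the log2 change beside single genes (with its standard error, SE), was -0.17, beside 0.00108 over all genes tested, and 63 of the 92 members (68.5%) were below 0, beside 49.8% of all genes. Falls were modest, reaching -0.56 among the called members, while the largest rise among them was 0.89. In 52 members (56.5%) the groups did not overlap and PZT-2 was the lower one, and in 17 (18.5%) they did not overlap and PZT-2 was the higher one, where the shares of all genes tested were 32.9% and 33.3%. A call with 2 libraries in each group makes such a separation likely. Where it is given below for called genes, it describes the values and is no further support. Many members are genes with short transcripts, and 56 of the 92 were among the 10% of tested genes with the shortest effective length. The other short genes had a median of -0.02, and those of them with at least 500 normalized counts had a median of -0.10, beside -0.16 for the 50 members of the same kind, with 30.8% of them called lower beside 30.0% of these 50 members. The part of transcript length and level in the members' values was not tested.

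**Figure D1:**
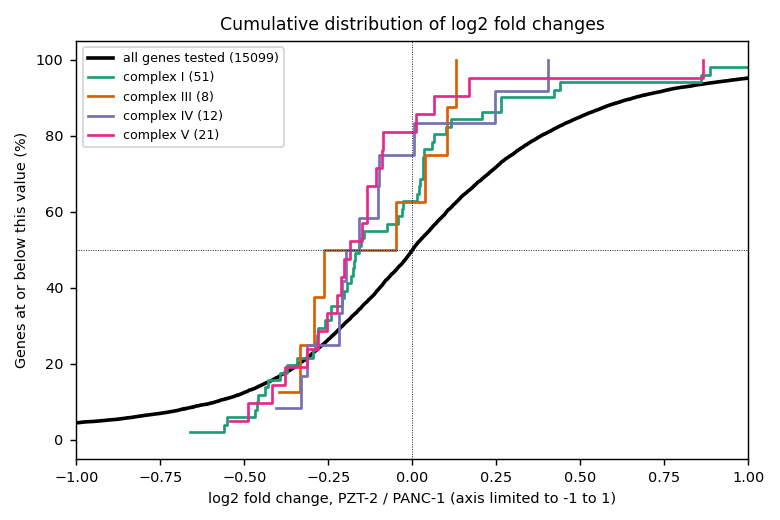
Cumulative share of genes (vertical axis, %) at or below each log2 fold change of PZT-2 against PANC-1 (horizontal axis, shown from -1 to 1) for all 15099 genes tested and for the 51, 8, 12 and 21 members of complexes I, III, IV and V. The curves of all 4 complexes cross 50% to the left of 0, at medians from -0.15 to -0.18, where the curve of all genes crosses at 0.00108.

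The calls rested on all 4 libraries to an unequal degree. The members' median log2 fold change was -0.14 without PZT-2 replicate 1 and -0.16 without replicate 2, beside -0.17 in the main test. It was -0.15 without PANC-1 replicate 1 and -0.18 without replicate 2. Without PANC-1 replicate 1 or 2, 30 and 38 members were called lower, whereas without PZT-2 replicate 1 or 2 only 9 and 9 were, and 3 and 2 were called higher. Calls over all genes tested also fell then, from 4293 to 2315 and 1895. In these fits the remaining PZT-2 library is assumed to vary like the PANC-1 pair. Only 9 of the 36 called members stayed past the threshold whichever library was left out, namely NDUFA1, NDUFS7, NDUFS6, NDUFB7, COX8A, ATP5F1D and ATP5MG among the lower and NDUFV2 and NDUFAF7 among the higher. With 2 libraries in each group, the smallest p an exact permutation of the samples can give is 0.33, so no single value was tested in that way.

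Other analyses of the same counts ended some calls. The DESeq2 Wald test did not call NDUFAF4 (adjusted p = 0.134), NDUFA3 (0.105), NDUFA7 (0.0859), NDUFA11 (0.0660) or COX6C (0.0535), and limma-trend on log2(TPM + 1) did not call COX7B (0.131), COX7C (0.0927), NDUFA4 (0.0804), NDUFA11 (0.0526) or ATP5MC2 (0.0501). With the most abundant transcript of each gene alone, 14 of the 36 calls were lost, at adjusted p from 0.0572 for ATP5MC2 to 0.349 for ATP5F1C, among them NDUFAF3, NDUFAF7, COX6C and COX7A2L of the 6 higher members. Calls over all genes tested also fell in that setting, from 4293 to 2124. A lost call there need not mean a smaller change. COX6C and COX7B have only 1 transcript, and their log2 changes were 0.24 and -0.32 there, beside 0.25 and -0.31 in the main test. NDUFS3, just outside the threshold, passed with RLE size factors, with upper-quartile factors and when at least 10 counts were required in all 4 libraries (adjusted p from 0.0377 to 0.0479).

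Complex I takes electrons from NADH, and its 51 members split into 16 called lower, 4 called higher and 31 not called, with a median of -0.16. When assembly factors and the antisense, divergent and readthrough genes were set aside, 15 of the remaining 39 were called lower and 2 higher, with a median of -0.18. NDUFA4, described below, was among these 15. Of the 7 nuclear core subunits, which hold the flavin and the iron-sulfur clusters, 2 were called lower and 1 higher. NDUFS7, which carries the last iron-sulfur cluster before ubiquinone, had normalized counts of 1019 and 885 in PANC-1 and 623 and 675 in PZT-2 (log2 change -0.55, SE 0.0930, adjusted p = 0.00691). NDUFV1, which binds NADH and the flavin, had 3057 and 2884 in PANC-1 and 2276 and 2310 in PZT-2 (log2 change -0.37, SE 0.0583, adjusted p = 0.00526). The groups did not overlap for either gene.

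NDUFV2, the partner of NDUFV1 in the flavoprotein part of complex I, went the other way. It had 1516 and 1651 normalized counts in PANC-1 and 2124 and 2126 in PZT-2 (log2 change 0.42, SE 0.0651, adjusted p = 0.00500). NDUFS1, the largest core subunit, did not pass, with 1684 and 1752 against 1709 and 1809 (log2 change 0.03, adjusted p = 0.738), and its groups overlapped. NDUFS3 (-0.21, adjusted p = 0.0507) and NDUFS8 (-0.18, adjusted p = 0.101) had values below 0 and did not pass. The calls of NDUFS7 and NDUFV2 held with any library left out, the highest adjusted p being 0.0459 and 0.0469, while NDUFV1 reached 0.0509 without replicate 1 of PZT-2 and 0.0506 without replicate 2. NDUFS3 and NDUFS8 passed without PANC-1 replicate 2 (adjusted p = 0.0248 and 0.00738).

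Among the accessory subunits of complex I, which surround the core and stabilise it, NDUFA1 had the largest called fall. NDUFA1, a small X-linked subunit of the membrane arm needed for assembly, had 2219 and 2192 normalized counts in PANC-1 and 1572 and 1419 in PZT-2 (log2 change -0.56, SE 0.0691, adjusted p = 0.00233), which is 32.2% lower. NDUFA13, also known as GRIM-19, had 1761 and 1569 in PANC-1 and 1218 and 1189 in PZT-2 (log2 change -0.47, SE 0.0749, adjusted p = 0.00581). NDUFS6, a zinc-binding subunit of the NADH-oxidising module, had 2304 and 2380 against 1702 and 1701 (log2 change -0.46, adjusted p = 0.00229), and NDUFB7, of the membrane arm, had 1278 and 1193 against 871 and 925 (log2 change -0.46, adjusted p = 0.00504). The PZT-2 values of all 4 genes were under both PANC-1 values. NDUFA13 lost its call without PZT-2 replicate 2 (adjusted p = 0.0544).

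The other lower genes counted here as accessory subunits had smaller changes. These ran from -0.43 for NDUFA7 to -0.20 for NDUFA4, which is in complex I by its symbol only. NDUFA9, NDUFB2, NDUFA3, NDUFA6, NDUFB9, NDUFA10 and NDUFA11 lay between them. The groups did not overlap in any of these 9 genes, and each gene lost its call without PZT-2 replicate 1. The adjusted p then ran from 0.0628 for NDUFA9 to 0.229 for NDUFA4. Without PZT-2 replicate 2 all of them but NDUFA9 (adjusted p = 0.0365) lost it, the highest value being 0.209 for NDUFA3, and NDUFA3 and NDUFA11 also lost it without PANC-1 replicate 1 (0.0867 and 0.0824). NDUFB5, of the membrane arm, was the only accessory subunit called higher, with 1286 and 1321 in PANC-1 and 1653 and 1882 in PZT-2 (log2 change 0.44, SE 0.0784, adjusted p = 0.00839), and it lost its call without PZT-2 replicate 2 (adjusted p = 0.0646).

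NDUFA4 is listed as COXFA4 in the RefSeq table and is now counted as a subunit of complex IV. It had 2609 and 2608 normalized counts in PANC-1 and 2225 and 2307 in PZT-2 (log2 change -0.20, adjusted p = 0.0364). Its paralog NDUFA4L2, which hypoxia is known to induce in other cells, was near the detection limit, with 13.5 and 4.52 in PANC-1 and 6.04 and 4.94 in PZT-2 (adjusted p = 0.518). The groups of NDUFA4L2 overlapped.

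Of the 8 assembly factors of complex I, 2 were called higher and 1 lower, with a median of 0.07. NDUFAF7, a methyltransferase needed for complex I assembly, had the largest called rise of all members, from 160 and 198 normalized counts in PANC-1 to 320 and 344 in PZT-2 (log2 change 0.89, SE 0.131, adjusted p = 0.00443), which is 84.7% higher. This call held with any library left out. It did not hold with the most abundant transcript of the gene alone (adjusted p = 0.0603), although the log2 change was larger there, at 1.58. NDUFAF3 and NDUFAF4 bind each other and act together early in assembly, and their values moved apart. NDUFAF3 had 1395 and 1319 in PANC-1 and 1629 and 1627 in PZT-2 (log2 change 0.26, adjusted p = 0.0215), whereas NDUFAF4 had 259 and 266 against 195 and 193 (log2 change -0.44, adjusted p = 0.0230).

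The calls of NDUFAF3 and NDUFAF4 were lost without PZT-2 replicate 1 (adjusted p = 0.118 and 0.106) or replicate 2 (0.129 and 0.126). NDUFAF1, NDUFAF2, NDUFAF5, NDUFAF6 and NDUFAF8 did not pass, with log2 fold changes from -0.24 for NDUFAF6 to 0.11 for NDUFAF1. None of the 5 antisense, divergent and readthrough genes passed, although NDUFB2-AS1 was called higher with limma-trend on log2(TPM + 1) (adjusted p = 0.0317), NDUFV2-AS1 without PANC-1 replicate 1 (0.0215) and NDUFC2-KCTD14 without PANC-1 replicate 2 (0.0289). The readthrough gene NDUFC2-KCTD14 shares reads with NDUFC2, and their values lay on opposite sides of 0 (0.26 and -0.19, adjusted p = 0.0860 and 0.121). Their summed normalized counts were 1884 and 1943 in PANC-1 and 1772 and 1900 in PZT-2, which overlapped.

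**Figure D2:**
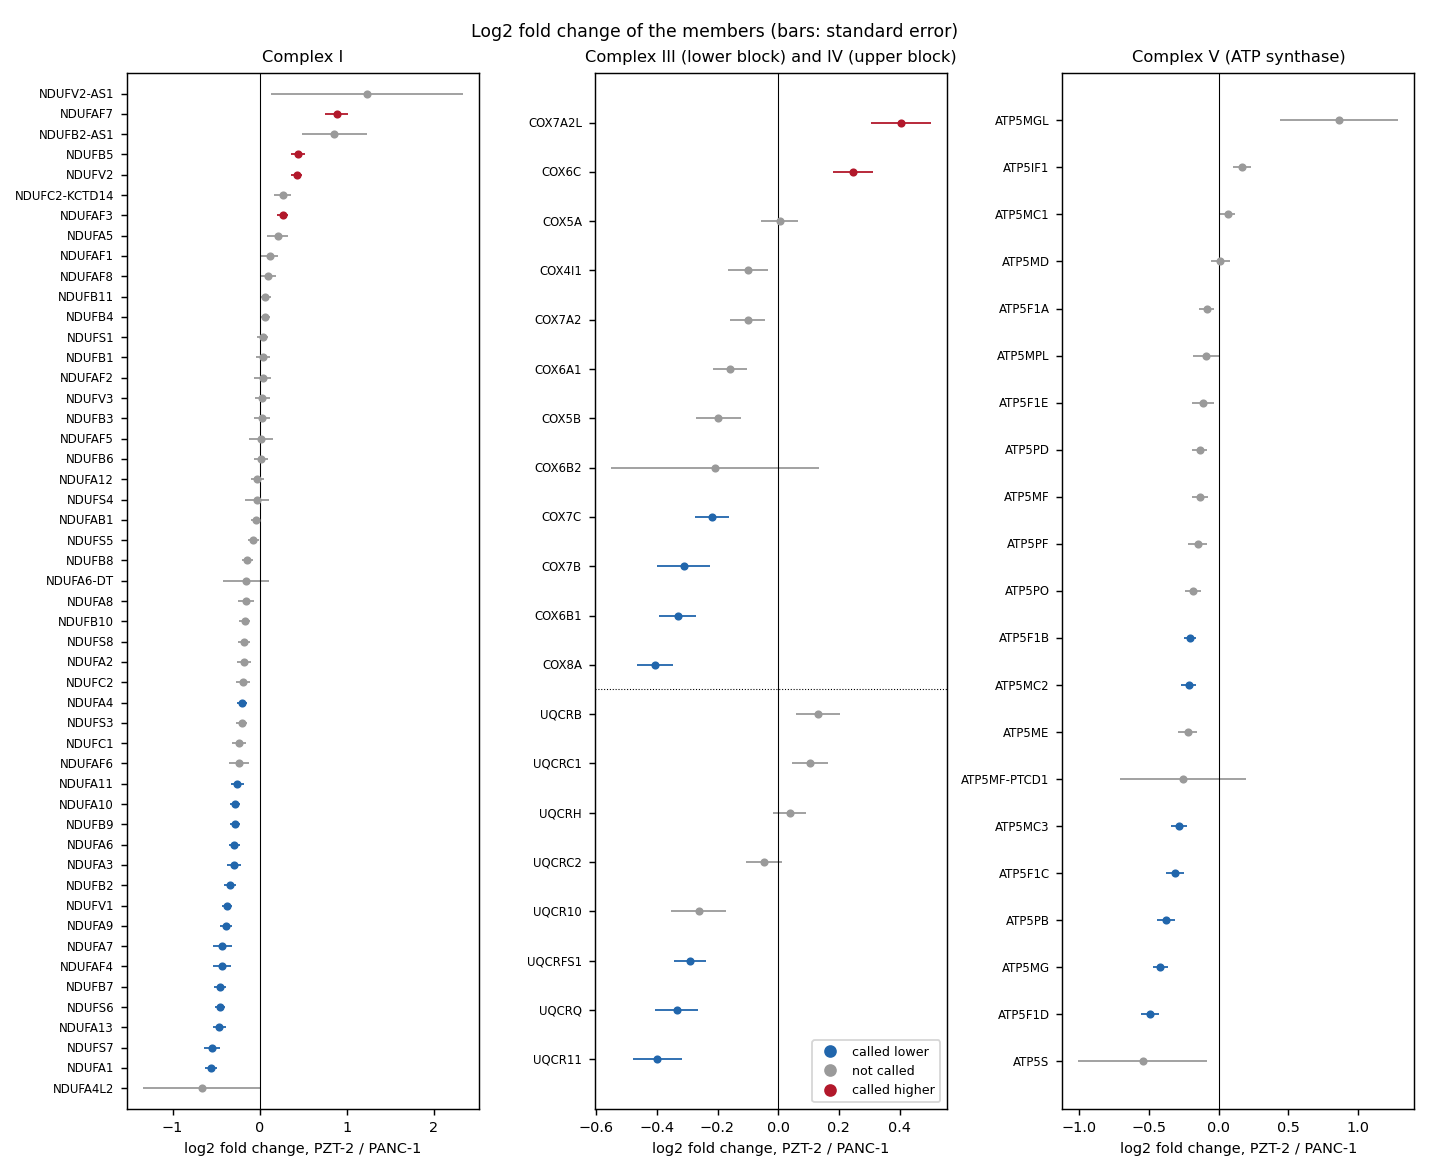
Log2 fold change of PZT-2 against PANC-1 (horizontal axes, which differ between panels) for the members, 1 of which is not drawn, with bars for the standard error, in panels for complex I, complexes III and IV, and complex V. Blue points are the 30 members called lower and red points the 6 called higher. Wide bars belong to genes with few counts such as NDUFV2-AS1, NDUFA4L2, COX6B2 and ATP5MGL. In complex V the widest are those of ATP5S and ATP5MF-PTCD1, whose libraries of the same cell line differed.

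Complex III passes electrons from ubiquinol to cytochrome c. Of its 8 members 3 were called lower and none higher, with a median of -0.15. UQCRFS1, the Rieske iron-sulfur protein and the only redox subunit among the 8, had 3668 and 3692 normalized counts in PANC-1 and 2967 and 3047 in PZT-2 (log2 change -0.29, SE 0.0524, adjusted p = 0.00859). The small subunits UQCR11 and UQCRQ had larger falls, UQCR11 from 1796 and 1583 to 1244 and 1318 (log2 change -0.40, adjusted p = 0.0128) and UQCRQ from 2399 and 2147 to 1807 and 1797 (log2 change -0.33, adjusted p = 0.0154). PZT-2 libraries lay below PANC-1 libraries in all 3 genes. The large core proteins UQCRC1 (log2 change 0.10, adjusted p = 0.246) and UQCRC2 (-0.05, adjusted p = 0.596) did not pass, nor did UQCRH (0.04), UQCRB (0.13) and UQCR10 (-0.26, adjusted p = 0.0763). All 3 calls were lost when PZT-2 replicate 1 was left out (adjusted p from 0.0847 to 0.0870) and when replicate 2 was (0.0618 to 0.103).

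Complex IV, cytochrome c oxidase, reduces oxygen to water. Its 12 members here are nuclear subunits around the mitochondrially encoded core, and 4 were called lower and 2 higher, with a median of -0.18. COX8A, a small transmembrane subunit, had 3716 and 3454 normalized counts in PANC-1 and 2710 and 2704 in PZT-2 (log2 change -0.40, SE 0.0595, adjusted p = 0.00427), and held its call with any library left out (highest adjusted p = 0.0460). COX6B1, which faces the intermembrane space, had 3362 and 3103 against 2571 and 2564 (log2 change -0.33, adjusted p = 0.00956). COX7B had 1250 and 1463 against 1110 and 1079 (log2 change -0.31, adjusted p = 0.0394), and COX7C had 3198 and 3239 against 2700 and 2831 (log2 change -0.22, adjusted p = 0.0287). No PZT-2 library reached the lower PANC-1 library in any of these 4 genes.

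COX7A2L, also called SCAF1, helps to join complexes III and IV into supercomplexes and was called higher. It had 2418 and 2011 normalized counts in PANC-1 and 2780 and 3070 in PZT-2 (log2 change 0.40, SE 0.0992, adjusted p = 0.0258). Its paralog COX7A2, a regular subunit, had 3236 and 3068 against 2890 and 2986 (log2 change -0.10, adjusted p = 0.244). COX6C, another small subunit, was also called higher, from 1314 and 1427 to 1643 and 1612 (log2 change 0.25, adjusted p = 0.0346). COX4I1 (-0.10), COX5A (0.01), COX5B (-0.20) and COX6A1 (-0.16) did not pass, with adjusted p from 0.0756 to 0.961, although COX5B (0.00294) and COX6A1 (0.0315) passed without PANC-1 replicate 2, and COX6B2 was detected only weakly, from 18.8 to 27.0 normalized counts.

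Without PZT-2 replicate 1 the calls of COX7A2L, COX6C, COX6B1, COX7B and COX7C were lost (adjusted p from 0.0565 for COX7A2L to 0.203 for COX7C), and without PZT-2 replicate 2 the same 5 were lost (0.0797 for COX6B1 to 0.189 for COX7B). COX6C was also lost without PANC-1 replicate 1 (adjusted p = 0.0534) and COX7B without PANC-1 replicate 2 (adjusted p = 0.0638).

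Complex V had 7 of 21 members called lower and none higher, with a median of -0.18, and 17 of the 21 were below 0. In the F1 head and its central stalk, 3 of 5 genes were called lower. ATP5F1D, the delta subunit of the central stalk, had 1908 and 1775 normalized counts in PANC-1 and 1295 and 1326 in PZT-2 (log2 change -0.49, SE 0.0647, adjusted p = 0.00292), which is 28.8% lower. ATP5F1C, the gamma subunit that turns inside the head, had 1718 and 1822 against 1450 and 1399 (log2 change -0.31, adjusted p = 0.0128). ATP5F1B, the catalytic beta subunit and by TPM the most abundant member, had 21731 and 20920 against 18370 and 18715 (log2 change -0.20, adjusted p = 0.0153). Its partner in the head, ATP5F1A (alpha), did not pass (log2 change -0.09, adjusted p = 0.279), nor did ATP5F1E (-0.11, adjusted p = 0.357), which passed without PANC-1 replicate 1 (0.0211).

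The falls of ATP5F1C and ATP5F1D were uneven over their transcripts. For ATP5F1C, transcript NM_005174 had 298 and 376 normalized counts in PANC-1 and 70.7 and 146 in PZT-2, whereas the more abundant NM_001001973 had 1420 and 1425 against 1379 and 1240. For ATP5F1D, NM_001687 had 1182 and 1036 against 649 and 751, and NM_001001975 had 726 and 739 against 646 and 575. The most abundant transcript, taken by mean TPM, was NM_001001973 for ATP5F1C and NM_001001975 for ATP5F1D. With that transcript alone neither gene passed (adjusted p = 0.349 and 0.131). NM_001687 of ATP5F1D, with more counts in PANC-1 and the larger fall, was not the one used there. How the reads of overlapping transcripts were divided is an estimate, and transcripts were not tested one by one.

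Of 7 listed genes of the peripheral stalk and the membrane part, 2 were called lower and all 7 were below 0. ATP5MD (log2 change 0.01, adjusted p = 0.921) and ATP5MPL (-0.09, adjusted p = 0.513), also of the membrane part, were not on that list and did not pass. ATP5MG, subunit g of the membrane part, had 3716 and 3726 normalized counts in PANC-1 and 2709 and 2865 in PZT-2 (log2 change -0.42, SE 0.0561, adjusted p = 0.00312). ATP5PB, subunit b of the stalk that holds the head still, had 1891 and 2022 against 1544 and 1468 (log2 change -0.38, adjusted p = 0.00760). ATP5MGL, a paralog of ATP5MG, was near the detection limit, from 11.7 to 31.2 normalized counts, and did not pass. ATP5IF1, the inhibitor that stops the enzyme from breaking down ATP, had 778 and 784 against 887 and 870, with both PZT-2 libraries above PANC-1, and did not pass (log2 change 0.17, adjusted p = 0.101). It passed with limma-trend on log2(TPM + 1), on log2(TPM + 0.1) and when counts were scaled by length.

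ATP5MC1, ATP5MC2 and ATP5MC3 encode the same mature c subunit of the rotor ring with different import sequences. Their differences from each other were not tested. ATP5MC2 fell from 2582 and 2551 normalized counts to 2197 and 2230 (log2 change -0.21, adjusted p = 0.0287) and ATP5MC3 from 3037 and 3056 to 2431 and 2581 (log2 change -0.28, adjusted p = 0.0137). ATP5MC1 had 2950 and 3072 in PANC-1 and 3171 and 3132 in PZT-2 (log2 change 0.07, SE 0.0544, adjusted p = 0.423). Per transcript length, ATP5MC1 made up 51.3% and 52.6% of the summed TPM of the 3 genes in PANC-1 and 57.5% and 56.6% in PZT-2, and the sum itself was 1646 ± 68.2 TPM (SD, n = 2) in PANC-1 and 1642 ± 0.611 in PZT-2.

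ATP5F1D and ATP5MG held their calls with any library left out (highest adjusted p = 0.0311 and 0.0370). ATP5PB lost its call without PZT-2 replicate 2 (adjusted p = 0.0781). ATP5F1B, ATP5F1C, ATP5MC2 and ATP5MC3 lost it when PZT-2 replicate 1 was left out (0.0673 for ATP5F1C to 0.180 for ATP5MC2) and also when replicate 2 was (0.0648 for ATP5MC3 to 0.157 for ATP5MC2). ATP5S, a former member of the family by name, had 123 and 121 normalized counts in PANC-1 but 38.2 and 129 in the PZT-2 replicates, so its value of -0.54 (adjusted p = 0.434) rested on PZT-2 replicate 1. Without that library the log2 change was 0.08, and without PZT-2 replicate 2 ATP5S was called lower (adjusted p = 0.0160).

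Summed per complex as TPM, which scales read counts by transcript length and library size, the differences were smaller. Complex I came to 10829 and 11065 TPM in PANC-1 and 10039 and 10173 in PZT-2, which is 7.68% lower by the means. Complex III came to 2366 and 2384 against 2310 and 2338 (2.14% lower), complex IV to 8151 and 8031 against 7422 and 7593 (7.21% lower) and complex V to 9146 and 9692 against 8883 and 8987 (5.14% lower). The PZT-2 libraries were below the PANC-1 libraries for every complex, and no test was made of these sums. On the log2(TPM + 1) scale the median of all genes tested lay at 0.04, and that of the members at -0.11. Together the 92 genes took 30832 ± 483 TPM (SD, n = 2) in PANC-1 and 28873 ± 309 in PZT-2. The complex I assembly factors went against this, with 496 and 534 TPM in PANC-1 and 576 and 605 in PZT-2.

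The changes of the members were uneven over the chromosomes. Of 11 members on chromosome 19, 10 were called lower (NDUFA3, NDUFA7, NDUFA11, NDUFA13, NDUFB7, NDUFS7, UQCR11, UQCRFS1, COX6B1 and ATP5F1D) and their median was -0.40, whereas among the 1120 other tested genes of chromosome 19 17.2% were called lower and the median was -0.05. Without chromosome 19, 20 of 81 members were called lower and 6 higher, with a median of -0.14. On chromosome 3, where 48.1% of 833 other genes were called higher and the median was 0.43, NDUFB5 and NDUFAF3 were called higher and NDUFB4 and UQCRC1 did not pass. On the X chromosome, where 35.8% of 472 other genes were called lower with a median of -0.29, NDUFA1 and COX7B were called lower and NDUFB11 did not pass. Chromosomes were counted after the values had been seen.

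For 5 of the 6 members called higher, the median of the neighbouring genes lay above 0.2. This was so for 9 of all 92 members and for 4 of the 56 not called. Over the nearest tested genes, 10 on each side with members left out, the median log2 fold change was 0.33 around NDUFAF7 (11 of 20 called higher), 0.43 around NDUFB5 (9 of 20), 0.43 around NDUFAF3 (12 of 20), 0.34 around NDUFV2 (9 of 19) and 0.22 around COX7A2L (4 of 20), where 14.7% of all genes tested were called higher. COX6C differed, with neighbours at -0.21 and none of 20 called higher. NDUFAF3 lay below its neighbours' median and the other 4 of these 5 above theirs. Of the 30 members called lower, 18 (60.0%) had a neighbour median within 0.1 of 0, among them NDUFA13 (-0.01) and NDUFB7 (-0.00375), beside 55 of all 92 members (59.8%). The neighbour median was below 0 for 23 of the 30, beside 52 of the 92. It was below -0.2 for 7 of the 30, beside 12 of the 92 and 4 of the 56 members not called. The 7 called lower were COX7B (-0.51), NDUFA1 (-0.43), NDUFS7 and ATP5F1D, which lie close together (-0.32 each), NDUFA11 (-0.27), ATP5MC2 (-0.24) and UQCR11 (-0.24). Over the 86 members with at least 100 normalized counts, the member's value and its neighbours' median had Pearson's r = 0.48 and Spearman's rho = 0.32, as a description across genes that share libraries and, in part, neighbours. The part of the chromosomal position in the members' changes was not tested.

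Genes that work beside the members were counted from lists of pathway genes. Complex II, which feeds electrons from succinate, had 1 of 8 genes called lower, none higher and a median of 0.06. These 8 were the subunits SDHA, SDHB, SDHC and SDHD and the assembly factors SDHAF1 to SDHAF4. The subunits had log2 changes of -0.25, -0.09, -0.20 and 0.12, in that order. All the assembly factors were above 0, from 0.05 for SDHAF2 to 0.32 for SDHAF4. The called gene was its flavoprotein SDHA, with 2225 and 2219 normalized counts in PANC-1 and 1906 and 1827 in PZT-2 (log2 change -0.25, adjusted p = 0.0200). CYC1, the cytochrome c1 of complex III, which the symbol rule leaves out, fell from 4536 and 4497 to 3500 and 3547 (log2 change -0.36, adjusted p = 0.00362), and this call held with any library left out. Among the other electron carriers, ETFA, a subunit of the electron transfer flavoprotein, was called higher (log2 change 0.33, adjusted p = 0.00942), and CYCS, ETFB and ETFDH did not pass. SDHA lost its call without PZT-2 replicate 1 (adjusted p = 0.0890) or 2 (0.167), with limma-trend on log2(TPM + 1) (0.0503) and with its most abundant transcript alone (0.104), and ETFA without PZT-2 replicate 2 (0.0930).

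Of 44 genes on the assembly lists of the 4 complexes, 9 were called (20.5%, beside 28.4% of all genes tested), 4 of them higher and 5 lower. Of 8 further complex I assembly genes, TIMMDC1, which builds the membrane arm, rose from 1412 and 1416 normalized counts to 2168 and 2227 (log2 change 0.64, adjusted p = 0.000833), and FOXRED1 fell from 641 and 621 to 455 and 442 (log2 change -0.49, adjusted p = 0.00515). Of 6 complex III assembly genes, TTC19 was called higher and BCS1L, which inserts the Rieske protein, and UQCC1 lower, with a median of -0.25. Of 23 complex IV assembly and copper delivery genes, CMC1 was called higher and COX20 and COA4 lower, with a median of -0.08, and of 7 genes on the list for complex V assembly, 3 of them members, ATPAF2 alone passed, upward (log2 change 0.50, adjusted p = 0.0212). TIMMDC1 and FOXRED1 held with any library left out (highest adjusted p = 0.0146 and 0.0436), but with the most abundant transcript alone 8 of the 9 calls were lost, FOXRED1 included (adjusted p = 0.0576), and TIMMDC1 was the one that held. BCS1L (0.143), UQCC1 (0.0806) and ATPAF2 (0.134) were not called by DESeq2 either. The calls of TTC19, BCS1L, UQCC1, CMC1, COX20, COA4 and ATPAF2 were lost without PZT-2 replicate 2, with adjusted p from 0.0705 to 0.162. Without PZT-2 replicate 1 all of these but COX20 (adjusted p = 0.0448) were lost as well, and BCS1L (0.0935) and ATPAF2 (0.0561) were also lost without PANC-1 replicate 2.

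All 4 supercomplex genes on the list were called, 2 in each direction. HIGD1A, a hypoxia-inducible inner membrane protein that binds complex IV, rose from 811 and 802 normalized counts to 1542 and 1606 (log2 change 0.96, SE 0.0620, adjusted p = 0.000308). HIGD1A lies on chromosome 3, as do TIMMDC1 and CMC1. COX7A2L was the other gene called higher, and HIGD2A (-0.26, adjusted p = 0.0287) and STOML2 (-0.29, adjusted p = 0.00848) were lower. HIGD1A held with any library left out (highest adjusted p = 0.00607), while HIGD2A and STOML2 lost their calls without PZT-2 replicate 1 (0.160 and 0.0817) or 2 (0.107 and 0.0718) and with the most abundant transcript alone (0.0724 and 0.136), and DESeq2 did not call HIGD2A (0.0809).

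A list for the transcription of respiratory genes had 15 genes with a value. Of these, 6 were called higher (40.0%, beside 14.7% of all genes tested) and none lower, with a median of 0.14. The list also holds genes that act on mitochondrial DNA and not on the nuclear members, POLG, TFB2M and TWNK among those called. PPARGC1B, a PGC-1 coactivator of mitochondrial genes, had 172 and 82.2 normalized counts in PANC-1 and 299 and 288 in PZT-2 (log2 change 1.23, SE 0.292, adjusted p = 0.0228), the group with the wider spread being PANC-1. YY1 rose from 1105 and 1136 to 1507 and 1477 (log2 change 0.41, adjusted p = 0.00404), and POLG, the mitochondrial DNA polymerase, from 1394 and 1339 to 1859 and 1940 (log2 change 0.48, adjusted p = 0.00271). GABPB1, TFB2M and TWNK were the others called higher. NRF1 (-0.27, adjusted p = 0.0808) and GABPA (-0.34, adjusted p = 0.116), whose letters were searched above, had values below 0 and did not pass, and neither did ESRRA (0.22, adjusted p = 0.0520) nor TFAM (-0.02), although ESRRA passed with limma-trend on log2(TPM + 1) (0.0232), with at least 10 counts in all 4 libraries (0.0375) and without PANC-1 replicate 1 (0.0108). YY1 and POLG held with any library left out. With the most abundant transcript alone POLG (adjusted p = 0.182) and the other 4 called genes beside YY1 were lost, up to 0.572 for TWNK. DESeq2 did not call TFB2M (0.182). Of these genes, PPARGC1B, GABPB1, TFB2M and TWNK lost their calls without PZT-2 replicate 2 (adjusted p from 0.0860 to 0.157). PPARGC1B (0.0823), TFB2M (0.123) and TWNK (0.0568) were lost without PZT-2 replicate 1 too, and TFB2M without PANC-1 replicate 1 (0.0710).

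None of the 13 messenger RNAs made from mitochondrial DNA was named in the abundance table, so the core subunits they encode are not analysed here. The mitochondrial ribosomal RNAs were named, in libraries that had been enriched for messenger RNA. MT-RNR1 had 4180 and 3863 normalized counts in PANC-1 and 5522 and 5072 in PZT-2 (log2 change 0.40, adjusted p = 0.00697), and MT-RNR2 had 46450 and 38890 against 34809 and 30638 (log2 change -0.38, adjusted p = 0.0261). Without PZT-2 replicate 1 MT-RNR1 lost its call (adjusted p = 0.0576), and without PZT-2 replicate 2 MT-RNR2 did (0.150), which DESeq2 (0.0577), limma-trend on log2(TPM + 1) (0.0625) and the most abundant transcript alone (0.0837) did not call either.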

How the data were processed

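Stranded mRNA libraries were sequenced from both ends. The authors trimmed the reads (Trim Galore 0.4.1) and quantified RefSeq transcripts (kallisto 0.43.0), and their own comparison used sleuth 0.29.0. Per the labels the genome build was hg19. The deposited estimated counts and the deposited TPM values carried a factor per library. The factor on counts was undone from transcripts that are alone in their gene, after which 49.0% to 49.7% of low values (0.5 to 30) were whole to within 0.01, against 0.635% to 2.71% as deposited. TPM was rescaled to the same total in each library. The recovered totals ran from 12861154 to 15717215 counts. The authors' columns of effects, p and q values from sleuth were not used. Transcripts (31077) were named by the deposited symbols (27049) or by their accession in the RefSeq table (3925), and 103, with 0.0466% of counts, stayed unnamed. Of the members' 200 transcripts, 25 were named by accession. ATP5 genes listed under older names were matched through RefSeq synonyms.

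Estimated counts were rounded and summed per gene. A gene was tested when 2 or more libraries held at least 5 counts of it. The main test was edgeR's quasi-likelihood F test (version 4.0.16, R 4.3.3) after TMM scaling, with Benjamini-Hochberg adjustment over all genes tested. "Called" means an adjusted p under 0.05. Normalized counts were scaled to the mean library. Standard errors are those implied by the F value. The script was tested on simulated data. DESeq2 1.42.0 and limma 3.58.1 gave alternatives, beside other size factors and filters, counts as deposited, length-scaled counts, the most abundant transcript alone, a replicate block and each library left out. The most abundant transcript of a gene was the one with the highest mean TPM. The labels do not say whether the 2 libraries of a cell line came from separate cultures, so p-values measure the spread between these libraries. Replicates varied 6.24 times (PANC-1) and 3.51 times (PZT-2) as much as counting alone gives. Genes named with values were the 3 largest called rises and falls of each complex, core subunits, paralog groups, called assembly factors and the targeted genes. Other called members, list genes and transcripts named were chosen after their values were seen. Members and lists were chosen with earlier results of these data known. The values of 1 member are not reported here, and counts and medians over groups include it.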

Additional observations from a re-analysis of the deposited data

How the results depend on the processing

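The median of each complex and of all members stayed below 0 under every alternative run. With limma-trend on log2(TPM + 1) the medians were nearer 0, at -0.10 for complex I, -0.0979 for complex III, -0.0966 for complex IV, -0.13 for complex V and -0.11 for all members. With a pseudocount of 0.1 they were -0.10, -0.0987, -0.11, -0.14 and -0.11. The median of all genes tested then lay at 0.04 and 0.06. Under both, 2 members of complex IV were called lower and 1 of complex V (ATP5IF1) higher, as was 1 of complex V with length-scaled counts. With the most abundant transcript alone, 2 members were called higher in all, 2 of them in complex I and 0 in complex IV, 2 were called lower in complex IV and 4 in complex V, and 2124 genes were called in all. DESeq2 called 1 member of complex IV higher. The replicate number as a block also gave 1 there, and 25 members lower and 5 higher in all. The numbers gave no sign of pairing (r = -0.02 over 15099 genes, 2 pairs). With each library left out, members called lower ran from 9 to 38 in all, 5 to 21 in complex I, 0 to 3 in complex III, 1 to 5 in complex IV and 3 to 9 in complex V, and members called higher from 2 to 7 in all, 2 to 5 in complex I and 0 to 2 in complex IV. The medians then ran from -0.18 to -0.14 (all members), -0.19 to -0.13 (complex I), -0.18 to -0.0922 (complex III), -0.19 to -0.0878 (complex IV) and -0.20 to -0.15 (complex V), and calls over all genes from 1895 to 4690. The counts were lowest without PZT-2 replicate 1 or 2. The causes were not tested.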
